A study of Mus musculus with 18 samples.

Results

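The genes described here encode the proteasome and its regulators in the mouse. They are the genes whose symbol begins with Psm, followed by one of the family letters a to g and a number. Of the 55401 gene identifiers counted in each library, 49 met this rule, and all 49 had enough counts to be tested. By role, 5 are inducible by interferon: the catalytic subunits Psmb8, Psmb9 and Psmb10 and the activator subunits Psme1 and Psme2. A further 31 are the constitutive members of the 26S particle. The other 13 are assembly chaperones, other regulators, tissue-restricted subunits and Psme2b, a near copy of Psme2.

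RNA was sequenced from gp38+ stromal cells, which carry podoplanin, a surface protein of fibroblasts and other stroma, sorted from salivary glands of Balb/c mice aged 8 to 12 weeks. The infected glands had received a replication-defective adenovirus 5 through a cannula in the submandibular duct, a procedure that leads to lymphoid aggregates in the gland. Groups of 3 mice, 1 library a mouse, were taken without infection (hour 0) and 3 hours, 1 day, 2 days, 8 days and 23 days after it. No group was cannulated without virus, so the virus and the procedure cannot be told apart. Because the sorted population is a mixture, fewer cells of a type and less RNA per cell cannot be told apart.

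The proteasome degrades proteins that carry ubiquitin. Its core is a stack of rings made of alpha and beta subunits, and the cutting is done by Psmb5, Psmb6 and Psmb7. In the presence of interferon-gamma many cells build Psmb8, Psmb9 and Psmb10 into new cores in place of Psmb5, Psmb6 and Psmb7 in that order, which gives the immunoproteasome, and make the PA28 activator from Psme1 and Psme2. These changes alter the peptides that are made for display on MHC class I molecules. The 19S cap, made of a base with ATPases and a lid, recognises and unfolds substrates.

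Psmb8 lies at chr17:34197721-34201454 on the plus strand and Psmb9 at chr17:34181987-34187764 on the minus strand of GRCm38, within the MHC region and beside the peptide transporter genes Tap1 and Tap2. Psmb10 lies at chr8:105935735-105938444 on the minus strand. Psme1, at chr14:55578123-55581529 on the plus strand, and Psme2, at chr14:55587441-55591113 on the minus strand, are near neighbours. Psmb5 is on the same chromosome, at chr14:54614119-54618022 on the minus strand. The starts of Psmb9 and Tap1, which are read in opposite directions, are 225 bases apart.

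Sequence upstream of the start is shown for Psmb8 and the constitutive subunit that it replaces, Psmb5, and the whole stretch between the starts is shown for Psmb9, because the levels of these genes carry the comparison of inducible with constitutive subunits. They are from RefSeq (GRCm38.p6) and are written 5′ to 3′ on the strand of the gene, ending at the base before the start. The start is that of RefSeq, which for these 3 genes lies inside the longer gene span given above, taken from GENCODE M21. Capitals mark a gamma-activated site (TTCNNNGAA) in Psmb8, a CCAAT box, here on the opposite strand, in Psmb9, and an antioxidant response element (TGACNNNGC, a motif bound by Nfe2l1 and Nfe2l2) in Psmb5. The Psmb8 sequence is chr17:34197945-34198194, that of Psmb9 is chr17:34187331-34187555 and that of Psmb5 is chr14:54617996-54618245.
Psmb8: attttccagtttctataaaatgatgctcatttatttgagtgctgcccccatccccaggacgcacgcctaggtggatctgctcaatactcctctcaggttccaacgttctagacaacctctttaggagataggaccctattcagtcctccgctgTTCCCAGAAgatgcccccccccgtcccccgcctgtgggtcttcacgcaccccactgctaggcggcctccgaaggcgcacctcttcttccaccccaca
Psmb9: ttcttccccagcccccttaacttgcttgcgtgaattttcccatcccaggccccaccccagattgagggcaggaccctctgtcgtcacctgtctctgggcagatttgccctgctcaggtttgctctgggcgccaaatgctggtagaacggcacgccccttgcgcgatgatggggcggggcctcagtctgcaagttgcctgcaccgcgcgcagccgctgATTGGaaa
Psmb5: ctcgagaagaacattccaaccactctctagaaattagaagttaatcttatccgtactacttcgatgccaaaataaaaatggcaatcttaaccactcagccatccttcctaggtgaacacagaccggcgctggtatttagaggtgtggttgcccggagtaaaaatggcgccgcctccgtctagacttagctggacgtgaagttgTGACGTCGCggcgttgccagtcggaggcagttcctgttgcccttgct

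In Psme1 a match to the interferon-stimulated response element lies just inside the transcribed stretch, on the opposite strand, 10 to 19 bases after the start. It is shown, in capitals, with its neighbours at chr14:55578493-55578522.
Psme1 site: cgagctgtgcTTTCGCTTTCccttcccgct

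A set of 5 motifs was searched on both strands in windows of 300 bases, from 250 before to 50 after the start, and matches to different motifs did not overlap in the members' windows. RefSeq windows were found for 41 of the 49 members. The interferon-stimulated response element (GAAA, any 2 bases, GAAA) was present in 5 of the 41 members (Psmb3, Psmd4, Psmd9, Psme1 and Psmg4) and in 3.43% of all 32817 windows. The gamma-activated site was present in 3 (Psmb8, Psmd2 and Psmg1) and in 8.29% of all windows. The antioxidant response element was found in 6 (Psmb5, Psmb6, Psmc6, Psmd12, Psmd9 and Psme4) and in 12.4% of windows. The CCAAT box was found in 14 members and in 37.4% of windows, and the NF-kB site (GGGA, any 2 bases, TTCC) in Psme4 and in 1.47% of windows. A match to these letters is a description of the window and does not show that a factor is bound there.

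Library totals ran from 4398234 to 15234431 counts. The precision of a level follows from the counts behind it, so members with few counts, such as Psma8 and Psmb11, are the least certain. The labels number the replicates 1 to 18 through all groups and name no batch. Sensory receptor genes, which stroma is not known to express, had 0.00152 to 0.0114 counts scaled to library size per kilobase of exon in the libraries of hour 3, day 8 and day 23 (replicates 1 to 9), and 0.0422 to 0.209 in those of hour 0, day 1 and day 2 (replicates 10 to 18). Where hour 3, day 8 or day 23 is set against hour 0, the effect of time and that of whatever separates these 2 sets of libraries cannot be told apart. All 9 fibroblast markers, Pdgfra and Pdpn included, had counts in every group, with sums of 11069 to 15064 counts scaled to library size (CPM) at day 1 against 24495 to 28940 at hour 0. These 2 genes moved apart at day 1. Pdgfra averaged 182 ± 23.6 CPM at day 1, against 1922 ± 145 at hour 0. Pdpn, the gene of the sorting marker podoplanin, averaged 827 ± 100 CPM at hour 3 and 338 ± 121 at day 1, against 60.4 ± 6.09 at hour 0 (SD, n = 3 each). Leukocyte markers (9 genes, Ptprc among them, none at 0 in any group) summed to 22.1 to 26.5 CPM at day 1, 249 to 278 at day 8 and 120 to 162 at day 23, against 41.4 to 62.8 at hour 0. Acinar and duct markers, which belong to the secretory tissue, summed to 2406 to 3288 CPM at day 1 and 225 to 1099 at day 2, against 31263 to 71290 at hour 0. The part of other cells in the results on the proteasome was not tested.

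Levels are given as CPM scaled by the trimmed mean of M-values (TMM), and members are said to have risen or fallen where edgeR's quasi-likelihood test gave a Benjamini-Hochberg adjusted p under 0.05 over all 27525 genes tested. TMM assumes that most genes do not change, and the scaling matters here, because the median gene of all those tested fell by 1.41 on the log2 scale at hour 3 and by 0.41 at day 1, and was 0.29 higher at day 2. Counts are therefore also given with libraries scaled by their totals alone, where these medians were -2.54, -0.31 and 0.66. Among the 12990 genes with at least 5 CPM in 3 libraries, fitted with TMM, the medians were -0.15, -0.01 and -0.004. In that fit TMM was computed anew on these genes, which itself places their typical change near 0. Medians with this filter therefore do not show that such genes were unchanged. The medians over all genes tested include genes with few counts, whereas 44 of the 49 members averaged at least 10 CPM in a group. Over the 6 groups 43 of the 49 members changed, at a background of 83.9% of all genes tested. The exceptions were Psmf1, Psmd9, Psmd10, Psmg1, Psmg3 and Psma8.

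As a share of all counts in a library, which amounts to scaling by library totals, the 49 members took 0.175% ± 0.00217 in uninfected mice, 0.182% ± 0.00674 after 3 hours, 0.500% ± 0.0445 after 1 day, 0.319% ± 0.0246 after 2 days, 0.216% ± 0.0219 after 8 days and 0.192% ± 0.0185 after 23 days (SD, n = 3 each). The 5 inducible members alone made up 11.6% ± 2.36 of the members' counts in uninfected mice, 9.54% ± 0.601 after 3 hours, 24.9% ± 4.12 after 1 day, 21.4% ± 1.02 after 2 days, 18.5% ± 2.96 after 8 days and 19.3% ± 0.838 after 23 days. The family's share was highest at day 1. The inducible part of it also had its highest mean there, but its day 1 libraries (23.5%, 29.6% and 21.7%) overlapped with those of day 2 (21.7%, 20.3% and 22.2%).

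**Figure D1:**
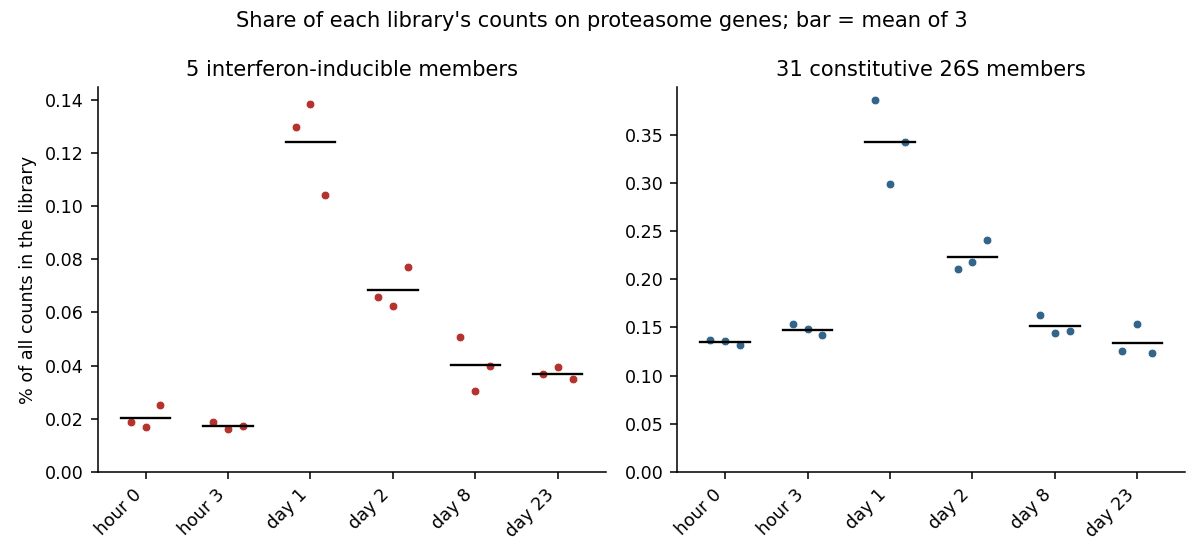
Share of all counts taken by the inducible and constitutive members in each of the 18 libraries, by time after infection. Points are libraries and bars mark group means, and the inducible share was 0.124% at day 1 against 0.0204% at hour 0.

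At day 1 nearly the whole family was higher than at hour 0, and the 5 inducible members had larger fold changes than any of the 31 constitutive members. Of the 49 members 39 rose, where 9.67% of all genes tested rose, and 1 fell, where 12.8% fell. All 5 inducible members and 30 of the 31 constitutive members were among those that rose. The median log2 fold change was 2.17 over the inducible members and 1.28 over the constitutive members, against -0.41 over all genes tested. Among genes with at least 5 CPM in 3 libraries these medians were 2.18, 1.28 and -0.01. The lowest of the 5 inducible values was 1.98 and the highest of the 31 constitutive values was 1.72.

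Psmb8, which takes the place of Psmb5 and has the chymotrypsin-like cutting activity, had 290, 322 and 244 CPM at day 1, against 29.4, 29 and 55.4 CPM at hour 0. Every day 1 library lay above every hour 0 library, and the log2 fold change was 2.91 ± 0.23 (SE, adjusted p = 5.04e-11 by edgeR's quasi-likelihood test). Psmb9, which replaces Psmb6, had 47.1, 70.8 and 38.3 CPM at day 1, against 12.6, 10.4 and 11.6 CPM at hour 0. The groups did not overlap, with a log2 fold change of 2.17 ± 0.25 (SE, adjusted p = 6.92e-08 in the edgeR fit).

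Psmb10, which replaces Psmb7, had 97.5, 87.4 and 78.0 CPM at day 1, against 15.8, 22.8 and 21.5 CPM at hour 0. Again all day 1 libraries were higher, with a log2 fold change of 2.13 ± 0.22 (SE, adjusted p = 9.68e-09 in the edgeR fit). Psme1, the alpha subunit of PA28, had 480, 454 and 378 CPM at day 1, against 71.7, 53.7 and 100 CPM at hour 0. Its log2 fold change was 2.54 ± 0.22 (SE, adjusted p = 1.86e-10 in the edgeR fit), and per kilobase of exon it was the most abundant member at day 1, at 198 ± 23.9 CPM per kb, and also at hour 0, at 34.0 ± 10.6 CPM per kb (SD, n = 3 each).

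Psme2, the beta subunit of PA28, had 114, 120 and 89.7 CPM at day 1, against 25.7, 22.1 and 33.8 CPM at hour 0, again without overlap. It rose by 1.98 ± 0.23 on the log2 scale (SE, adjusted p = 6.49e-08 in the edgeR fit). Over every alternative setting, left-out replicates included, the 5 inducible members kept their calls at day 1, and Psmb8 ranged from 2.75 to 3.29 on the log2 scale.

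**Figure D2:**
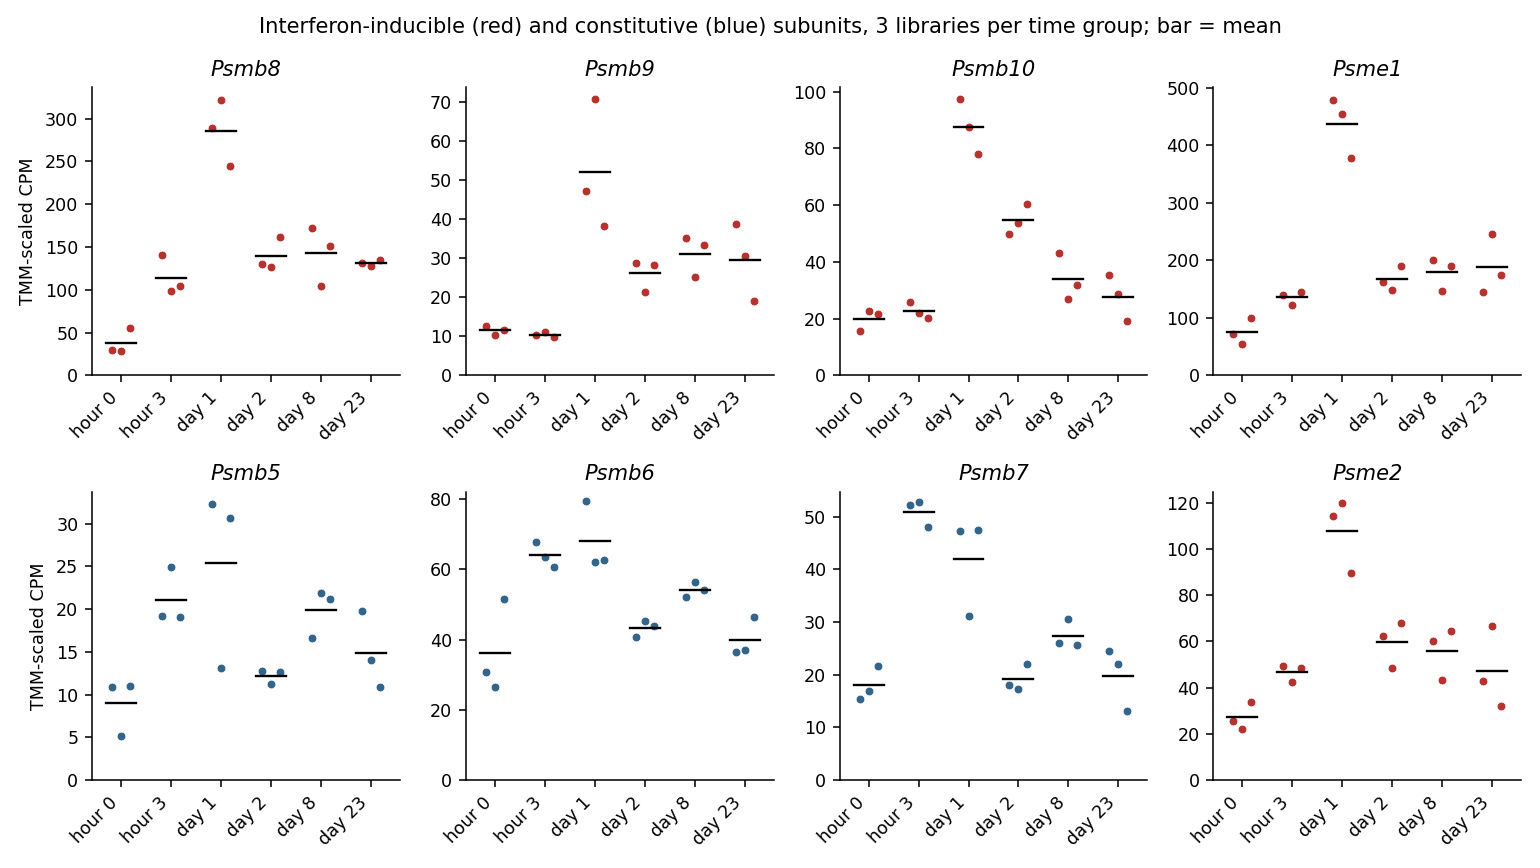
Levels of the 5 inducible members and the 3 constitutive catalytic subunits in every library, as CPM scaled by TMM on linear axes that start at 0, by time. Points are libraries and bars mark group means, and for each of the 5 inducible members the highest mean was at day 1.

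The 3 constitutive catalytic subunits also rose at day 1, with smaller fold changes. Psmb5 had 32.4, 13.1 and 30.6 CPM at day 1, against 10.9, 5.10 and 11.0 CPM at hour 0. The lowest day 1 library was just above the highest at hour 0, and the log2 fold change was 1.49 ± 0.31 (SE, adjusted p = 0.000514 by edgeR's quasi-likelihood test). Psmb6 had 79.4, 62.0 and 62.8 CPM at day 1, against 30.8, 26.4 and 51.5 CPM at hour 0, a log2 fold change of 0.91 ± 0.20 (SE, adjusted p = 0.000926 in the edgeR fit). Psmb7 had 47.3, 31.2 and 47.5 CPM at day 1, against 15.4, 16.9 and 21.7 CPM at hour 0, a log2 fold change of 1.22 ± 0.22 (SE, adjusted p = 0.000101 in the edgeR fit). In all 3 genes the libraries of the groups did not overlap.

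Among the structural and regulatory parts of the 26S particle, all 7 alpha ring subunits, all 4 structural beta subunits, all 6 base ATPases, all 3 non-ATPase base subunits and 7 of 8 lid subunits rose at day 1. The ATPase Psmc4, the constitutive member with the largest rise at day 1, had 83.3, 81.0 and 102 CPM at day 1, against 27.9, 25.9 and 27.1 CPM at hour 0. It rose by 1.72 ± 0.19 on the log2 scale (SE, adjusted p = 4.05e-08 in the edgeR fit), with no overlap between the groups. Psmd14, the lid enzyme that removes ubiquitin from substrates, had 45.7, 34.1 and 43.6 CPM at day 1, against 10.4, 11.4 and 23.2 CPM at hour 0, and rose by 1.44 ± 0.24 (log2, SE, adjusted p = 3.36e-05 in the edgeR fit).

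The constitutive exception at day 1 was the lid subunit Psmd6, with 51.2, 35.8 and 47.7 CPM at day 1, against 36.4, 30.9 and 43.1 CPM at hour 0. These groups overlapped, and the log2 fold change of 0.29 had a 95% interval from -0.15 to 0.73 (adjusted p = 0.378 in the edgeR fit).

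Scaled by library totals alone, 41 members rose and 1 fell at day 1, where 10.9% of all genes rose and 11.1% fell, and among genes with at least 5 CPM in 3 libraries 40 of the 46 members tested rose, at a background of 22.1%. Counts of 5 inducible and 30 constitutive members risen were also given by the library totals. At day 1 all 7 acinar and duct markers and 7 of 9 fibroblast markers fell, while 1 fibroblast marker rose. Mural (5 of 5), glial (4 of 4), erythroid (3 of 5), epithelial (3 of 6) and common leukocyte markers (3 of 9) fell too. T and NK (9 genes), B and plasma (5) and blood endothelial markers (6) each had 1 fall. Of 8 macrophage, monocyte and dendritic markers 1 rose, and no neutrophil marker was called. The part of these cells in the members' rise was not tested.

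**Figure D3:**
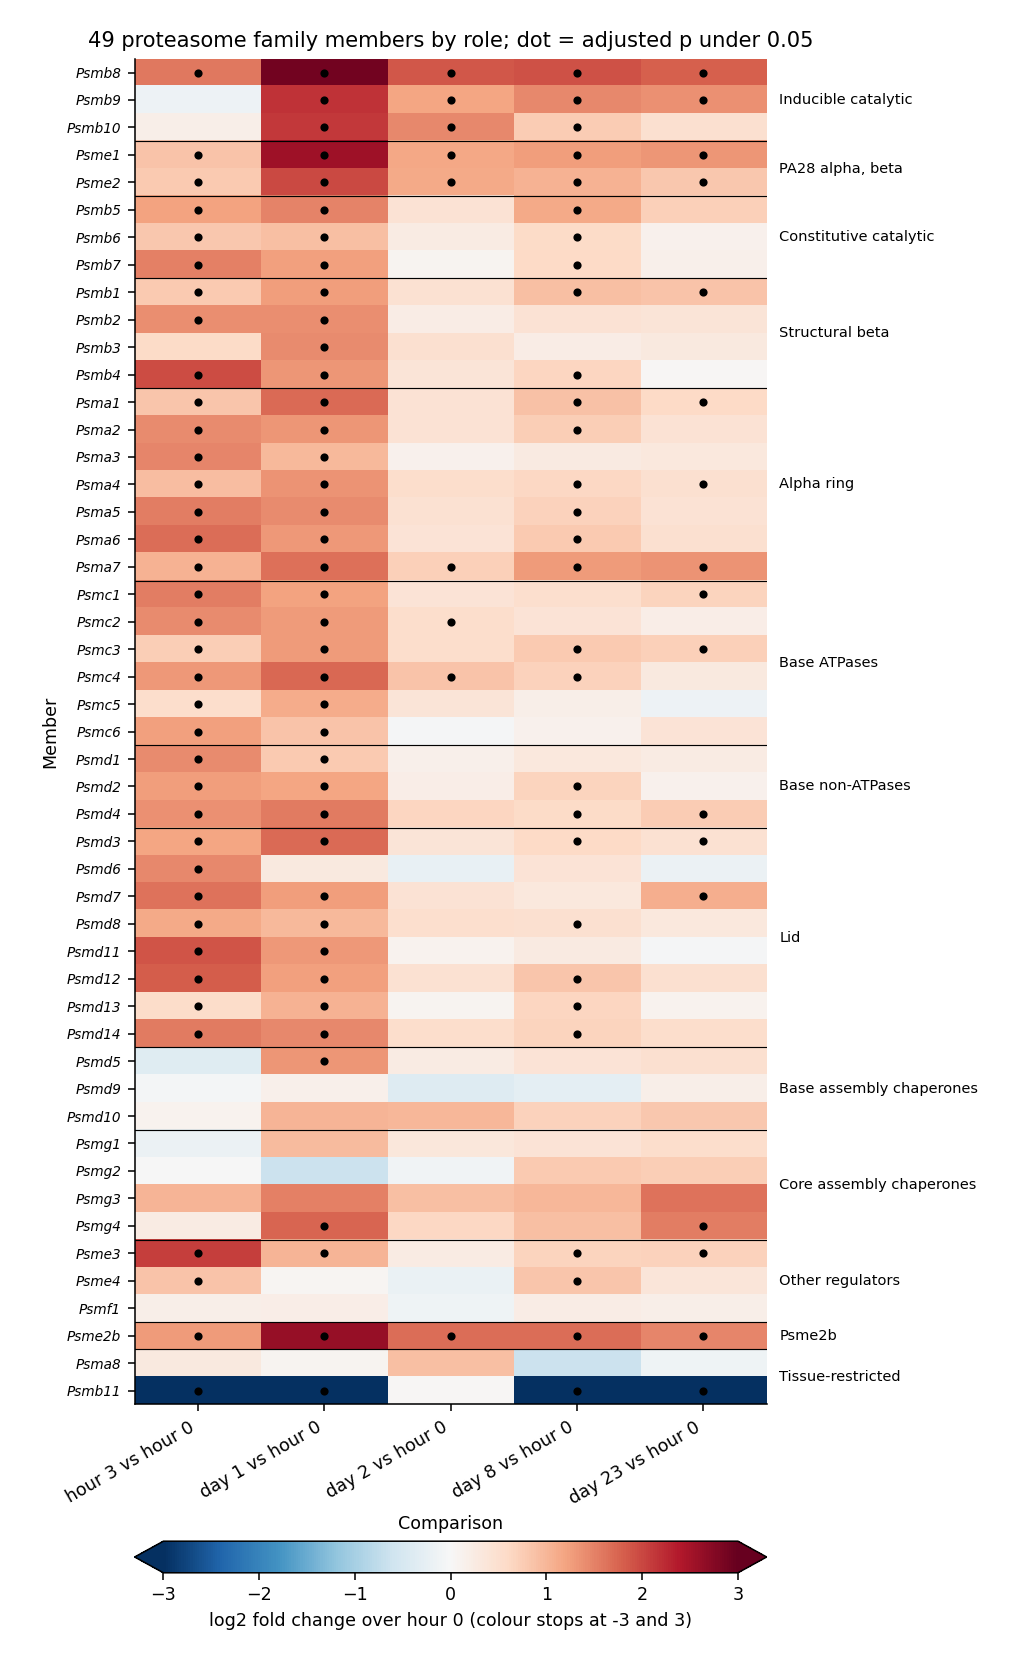
Log2 fold change of each of the 49 members against hour 0 at each time, grouped by role, with a dot where the member passed the test. The constitutive rows are positive at hour 3 (under the TMM scaling plotted, whereas with library totals 4 rose and 4 fell) and day 1 and paler at day 2, and the 5 inducible rows have their highest values at day 1.

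At day 2 the inducible members were still higher than at hour 0. The count of constitutive members that passed depended on the processing. Of the 49 members 9 rose, where 5.12% of all genes tested rose. None fell, where 9.63% of all genes fell, and edgeR's unadjusted p, DESeq2 and limma-voom also gave 0 falls. All 5 inducible members rose, with a median log2 fold change of 1.18, and 3 of 31 constitutive members rose, with a median of 0.42, against 0.29 over all genes tested. With the filter of 5 CPM in 3 libraries these medians were 1.34, 0.58 and -0.004, and 18 of the 31 rose. Of the 31, limma-voom called 5 risen, DESeq2 size factors 17, DESeq2 19 and library totals 22.

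Psmb8 had 131, 126 and 161 CPM at day 2, against 29.4, 29 and 55.4 CPM at hour 0. This was a log2 fold change of 1.87 ± 0.22 (SE, adjusted p = 2.35e-07 by edgeR's quasi-likelihood test) with no overlap. Psmb9 had 28.7, 21.5 and 28.4 CPM at day 2, a log2 fold change of 1.18 ± 0.25 (SE, adjusted p = 0.00088 in the edgeR fit), against its 10.4 to 12.6 CPM at hour 0. Psmb10 had 49.9, 53.8 and 60.4 CPM at day 2, 1.45 ± 0.22 higher on the log2 scale than at hour 0 (SE, adjusted p = 1.04e-05 in the edgeR fit). All libraries of these 3 catalytic subunits were higher at day 2 than at hour 0.

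The activator subunits did the same. Psme1 had 162, 148 and 190 CPM at day 2 and a log2 fold change of 1.15 ± 0.21 against hour 0 (SE, adjusted p = 0.000126 in the edgeR fit). Psme2 had 62.5, 48.7 and 67.9 CPM at day 2 and a log2 fold change of 1.13 ± 0.23 (SE, adjusted p = 0.000474 in the edgeR fit).

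The constitutive members that rose at day 2 by edgeR with TMM over all genes tested were the alpha subunit Psma7 and the ATPases Psmc2 and Psmc4. Psmc4 had 43.7, 52.1 and 51.7 CPM at day 2, against 27.9, 25.9 and 27.1 CPM at hour 0 (log2 fold change 0.87 ± 0.19, SE, adjusted p = 0.00144 in the edgeR fit). Psma7 had 43.3, 50.9 and 51.2 CPM at day 2, against 28.2, 31.8 and 29.1 CPM at hour 0 (0.71 ± 0.19, adjusted p = 0.00906). Psmc2 had 39.2, 46.5 and 49.9 CPM at day 2, against 34.8, 32.2 and 27.5 CPM at hour 0 (0.52 ± 0.17, adjusted p = 0.0386), but its call was lost without replicate 11, 12, 17 or 18 (highest adjusted p = 0.165 in the edgeR fit). In each of the 3 the lowest day 2 library was above the highest at hour 0.

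The catalytic subunits Psmb5, Psmb6 and Psmb7 had log2 fold changes of 0.43, 0.25 and 0.09 at day 2, with 95% intervals of -0.21 to 1.07, -0.16 to 0.66 and -0.37 to 0.55. None passed the test under TMM, and Psmb6 passed it with library totals alone. The count at day 2 depended on the scaling: with library totals alone 30 members rose and 0 fell, 22 of them constitutive, where 9.29% of all genes rose and 4.64% fell. With a filter of 5 CPM in 3 libraries 25 of 46 members rose, at a background of 14.3%, and DESeq2 gave 27.

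Between day 1 and day 2, 36 members fell, where 11.2% of all genes tested fell, and 1 rose, where 12.0% rose. The 36 included all 5 inducible members and 29 constitutive members. Median log2 fold changes over the 5 and over all 31 were -0.99 and -0.90, against 0.78 over all genes tested. Among genes with at least 5 CPM in 3 libraries these medians were -0.84, -0.74 and -0.06. Psme1 fell by 1.39 ± 0.21 (SE, adjusted p = 2.2e-05 by edgeR's quasi-likelihood test), Psmb8 by 1.03 ± 0.22 (adjusted p = 0.00105), Psmb9 by 0.99 ± 0.24 (adjusted p = 0.00411), Psme2 by 0.85 ± 0.22 (adjusted p = 0.00664) and Psmb10 by 0.68 ± 0.21 (adjusted p = 0.0217). When scaled by library totals 25 members fell, where 4.61% of all genes fell, and 1 rose, where 16.3% rose. The call for Psmb10 was then lost (log2 fold change -0.41, adjusted p = 0.17), as it was with DESeq2, with the 5 CPM filter and without replicate 13, 16 or 17 (highest adjusted p = 0.0858 in the edgeR fit).

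**Figure D4:**
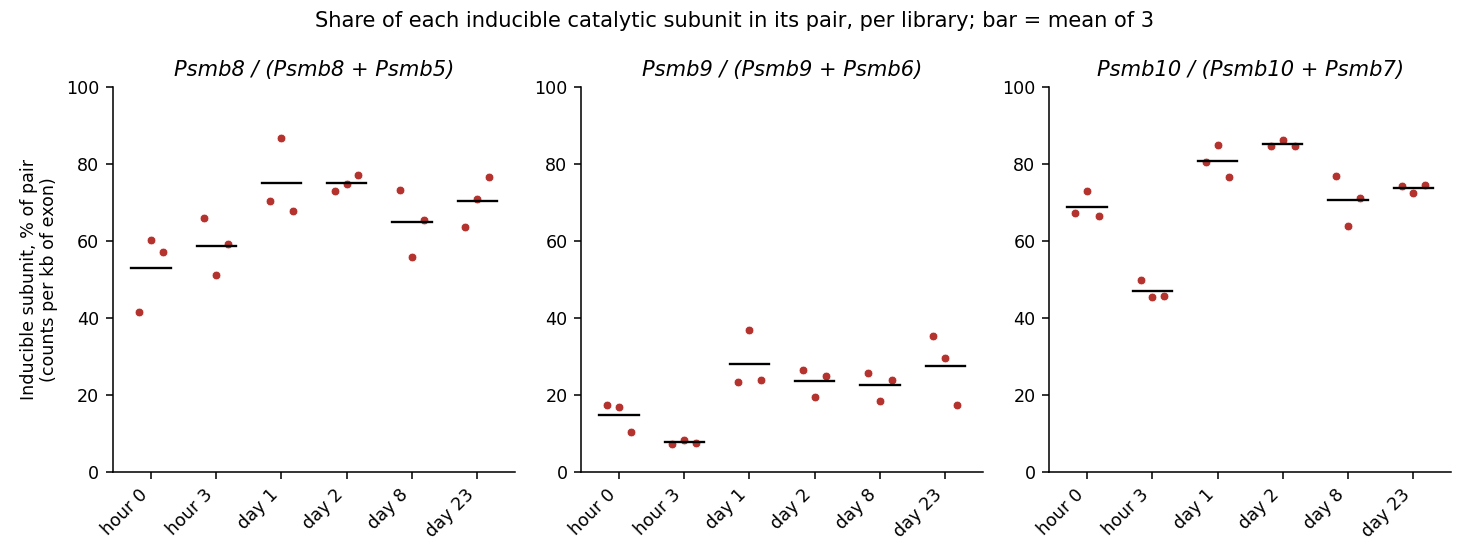
Percent of each catalytic pair made up by its inducible subunit, from counts per kilobase of exon, in every library by time. Points are libraries and bars mark group means, and Psmb10 and Psmb9 had their lowest group means at hour 3.

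Ratios within a library do not depend on how libraries are scaled, so each inducible subunit was set against the constitutive subunit it replaces. The size of each share depends on the annotated exon lengths, which are the same for every library. Psmb8 made up 41.7%, 60.2% and 57.3% of the Psmb8 and Psmb5 pair in uninfected mice, 66.0%, 51.2% and 59.2% after 3 hours, 70.4%, 86.8% and 67.9% after 1 day, 73.1%, 74.9% and 77.3% after 2 days, 73.4%, 55.9% and 65.6% after 8 days, and 63.8%, 70.8% and 76.7% after 23 days, all per kb of exon. The day 1, day 2 and day 23 libraries all lay above the hour 0 libraries, while those of hour 3 and day 8 overlapped with them.

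Psmb9 made up 17.3%, 16.8% and 10.3% of the Psmb9 and Psmb6 pair in uninfected mice, 7.20%, 8.20% and 7.61% after 3 hours, 23.3%, 36.9% and 23.8% after 1 day, 26.5%, 19.5% and 24.9% after 2 days, 25.6%, 18.6% and 24% after 8 days, and 35.2%, 29.7% and 17.4% after 23 days. Every hour 3 library was below the lowest at hour 0, and every library of the 4 later times was above the highest at hour 0.

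Psmb10 made up 67.3%, 73.0% and 66.6% of the Psmb10 and Psmb7 pair in uninfected mice, 49.96%, 45.4% and 45.8% after 3 hours, 80.5%, 84.9% and 76.7% after 1 day, 84.7%, 86.2% and 84.6% after 2 days, 76.9%, 63.9% and 71.3% after 8 days, and 74.4%, 72.4% and 74.7% after 23 days. Again hour 3 was the lowest group, day 1 and day 2 were above hour 0 in all libraries, and day 8 and day 23 overlapped with hour 0.

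The log2 ratio of Psmb8 to Psmb5 was 1.5 higher at day 1 than at hour 0, that of Psmb9 to Psmb6 1.17 higher and that of Psmb10 to Psmb7 0.93 higher, each with p = 0.1 by a two-sided exact permutation test (n = 3 each). The smallest p that this test can give at 3 against 3 is 0.1, and it came to 0.185 after Benjamini-Hochberg adjustment over 24 such tests, so no ratio could pass 0.05. Without replicate 14 the 3 differences at day 1 were 0.99, 0.86 and 0.73. At day 2 the differences were 1.42, 0.86 and 1.37, with the same exact p of 0.1. At hour 3 the log2 ratio of Psmb9 to Psmb6 was 1.03 lower and that of Psmb10 to Psmb7 1.33 lower than at hour 0 (exact permutation p = 0.1 each), and that of Psmb8 to Psmb5 was 0.34 higher (exact permutation p = 0.5). Exons of Psmb9 share 5.79% of their bases with Tap1, those of Psmb7 11.8% with Nek6 and those of Psmb8 14.7% with the antisense gene Gm20496, all on the opposite strand. Since the strand setting of the counting is not given in the sources used here, reads in these stretches cannot be told apart. Exons of Psmb5 share 12.1% of their bases with the microRNA gene Mir686 on the same strand, where a strand setting would not separate the reads.

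At hour 3 the constitutive members were higher than at hour 0 under TMM scaling, and the inducible catalytic subunits Psmb9 and Psmb10 were not. Of the 49 members 36 rose, where 16.9% of all genes tested rose, and 1 fell, where 43.1% fell. The 36 included 30 constitutive members, with a median log2 fold change over all 31 of 1.38, and the inducible Psmb8, Psme1 and Psme2, with a median over the 5 of 0.78, against -1.41 over all genes tested. With the filter of 5 CPM in 3 libraries these medians were 1.19, 0.59 and -0.15. The call depended on the scaling, since with library totals alone 5 members rose (Psma6, Psmb4, Psmd11, Psmd12 and Psme3), where 5.41% of all genes rose, and 14 fell, where 70.8% fell.

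Psme3, the subunit of the nuclear activator PA28 gamma, had the largest rise at hour 3 in the family under TMM scaling. It had 124, 131 and 116 CPM at hour 3, against 37.4, 21 and 29.9 CPM at hour 0. Its log2 fold change was 2.07 ± 0.19 (SE, adjusted p = 5e-10 by edgeR's quasi-likelihood test), and 0.90 with library totals alone (adjusted p = 0.00025). The structural subunit Psmb4 had 89.2, 84.1 and 90.1 CPM at hour 3, against 20.5, 21.7 and 25.8 CPM at hour 0. It was 1.95 ± 0.20 higher on the log2 scale (SE, adjusted p = 3e-09 in the edgeR fit), and 0.78 higher with library totals alone.

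The lid subunit Psmd11 had 194, 164 and 167 CPM at hour 3, against 53.7, 45 and 43.4 CPM at hour 0, a log2 fold change of 1.89 ± 0.18 (SE, adjusted p = 6.86e-10 in the edgeR fit) and of 0.71 with library totals alone. Psmb4, Psmd11 and Psme3 are thus higher at hour 3 in both scalings, and their libraries at hour 3 and hour 0 did not overlap. The catalytic subunits Psmb5, Psmb6 and Psmb7 rose by 1.21, 0.82 and 1.5 on the log2 scale, with adjusted p = 0.00217, 0.00141 and 3.31e-06 in the edgeR fit, but with library totals alone none of the 3 passed the test (0.05 and 0.33 higher for Psmb5 and Psmb7, and 0.35 lower for Psmb6). Psmb5 had 19.2, 24.9 and 19.0 CPM at hour 3, Psmb6 67.9, 63.4 and 60.7 CPM and Psmb7 52.1, 52.7 and 48.0 CPM.

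Psmb9 had 10.3, 11.1 and 9.78 CPM at hour 3, against 12.6, 10.4 and 11.6 CPM at hour 0, and the groups overlapped. Its log2 fold change was -0.15, with a 95% interval from -0.68 to 0.37 (adjusted p = 0.615 in the edgeR fit), and with library totals alone it fell by 1.33 (adjusted p = 0.0001). Psmb10 had 25.9, 21.9 and 20.2 CPM at hour 3, against 15.8, 22.8 and 21.5 CPM at hour 0, also with overlap. Its log2 fold change was 0.18, with a 95% interval from -0.27 to 0.63 (adjusted p = 0.479), and with library totals alone it fell by 1.00 (adjusted p = 0.00053).

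Psmb8 had 140, 98.3 and 104 CPM at hour 3, against 29.4, 29 and 55.4 CPM at hour 0 (log2 fold change 1.58 ± 0.22, SE, adjusted p = 1.09e-06 in the edgeR fit), and 0.42 with library totals alone (adjusted p = 0.089). Psme1 had 140, 122 and 144 CPM and Psme2 49.5, 42.3 and 48.5 CPM at hour 3. They rose by 0.85 and 0.78 on the log2 scale under TMM (adjusted p = 0.00137 and 0.00575 in the edgeR fit) and were 0.32 and 0.39 lower with library totals alone, where neither passed the test. Among genes with at least 5 CPM in 3 libraries 34 of 46 members rose at hour 3, at a background of 29.7%. Markers that leukocytes have in common summed to 98.9 to 112 CPM at hour 3, against 41.4 to 62.8 CPM at hour 0. Under TMM, the one scaling used for markers, 6 of these 9 and 7 of 9 fibroblast markers rose. T and NK markers fell in 5 of 9 genes and B and plasma markers in 3 of 5. Macrophage, monocyte and dendritic markers rose in 3 of 8 genes, and of 6 neutrophil markers 4 rose and 2 fell. The part of these lists was not tested.

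The group with the highest mean also depended on the scaling for the constitutive members. By TMM 17 of the 31 were highest at hour 3 and 14 at day 1, and by library totals all 31 were highest at day 1. The 5 inducible members were highest at day 1 in both.

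**Figure D5:**
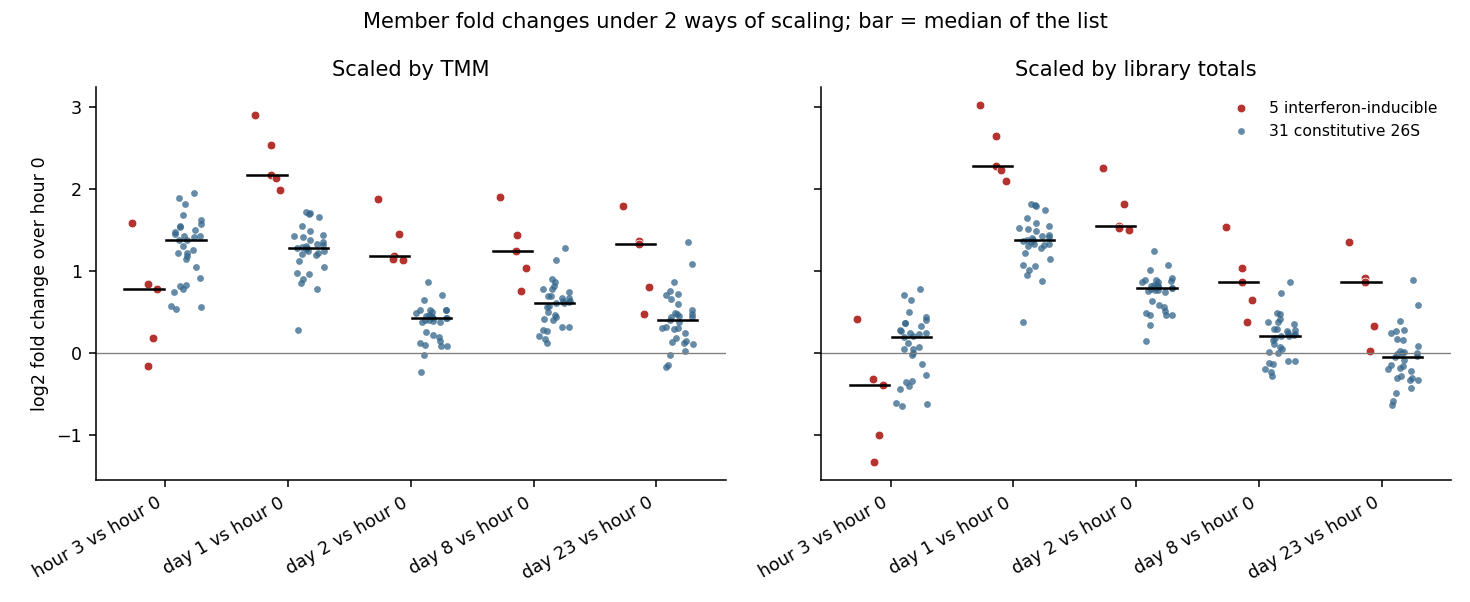
Log2 fold change against hour 0 of each of the 5 inducible and 31 constitutive members at each time, under TMM scaling (left panel) and with library totals alone (right panel). Points are members and bars are medians. At hour 3 the constitutive median was 1.38 under TMM and 0.20 with totals, and at day 1 it was 1.28 and 1.37.

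At day 8 all 5 inducible members, and at day 23 all but Psmb10, were higher than at hour 0 under TMM scaling. At day 8, 28 members rose, where 11.2% of all genes tested rose, and 1 fell, where 32.7% fell. The 28 included all 5 inducible members, with a median log2 fold change of 1.25, and 20 constitutive members, with a median over the 31 of 0.61, against -0.68 over all genes tested. These medians were 1.08, 0.44 and -0.03 with the filter of 5 CPM in 3 libraries. By library totals 8 members rose at day 8 (Psmb8, Psmb9, Psme1, Psme2, Psme2b, Psme4, Psma7 and Psmb5), where 4.97% of all genes rose, and 2 fell, where 43.2% fell.

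Psmb8 had 172, 104 and 152 CPM at day 8, against 29.4, 29 and 55.4 CPM at hour 0 (log2 fold change 1.91 ± 0.22, SE, adjusted p = 4.86e-07 by edgeR's quasi-likelihood test). Psmb9 had 35.1, 25.2 and 33.4 CPM at day 8 (1.44 ± 0.25, adjusted p = 0.000105), and Psme1 had 200, 147 and 190 CPM (1.25 ± 0.21, adjusted p = 6.19e-05). Psme2 had 60.1, 43.4 and 64.6 CPM (1.04 ± 0.23, adjusted p = 0.00107). In each of the 4 genes every day 8 library was above every hour 0 library.

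Psmb10 had 43.1, 26.9 and 31.7 CPM at day 8, against 15.8, 22.8 and 21.5 CPM at hour 0 (log2 fold change 0.76 ± 0.22, SE, adjusted p = 0.0081 in the edgeR fit). Its call was lost without replicate 1 (0.55 higher on the log2 scale, adjusted p = 0.0682 in the edgeR fit) and with library totals alone (0.38 higher, adjusted p = 0.17).

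The constitutive members with the largest rises at day 8 were Psma7 and the catalytic subunit Psmb5, which also rose by library totals. Psma7 had 67.7, 72.8 and 75.5 CPM at day 8, against 28.2, 31.8 and 29.1 CPM at hour 0 (log2 fold change 1.28 ± 0.19, SE, adjusted p = 1.6e-05 in the edgeR fit). Psmb5 had 16.6, 21.9 and 21.2 CPM, against 10.9, 5.10 and 11.0 CPM at hour 0 (1.13 ± 0.31, adjusted p = 0.00603). Psmb1 had 56.8, 56.7 and 62.3 CPM, against 40.4, 29.7 and 24.2 CPM at hour 0 (0.90, adjusted p = 0.0019). Psma1 had 29.6, 31.3 and 31.4 CPM, against 20.1, 11.1 and 19.0 CPM at hour 0 (0.87, adjusted p = 0.0025). In all 4 genes the day 8 libraries lay above those of hour 0, and with library totals alone the calls for Psmb1 and Psma1 were lost (0.49 and 0.47 higher, adjusted p = 0.0514 and 0.0651 in the edgeR fit).

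Among genes with at least 5 CPM in 3 libraries 21 members rose at day 8, at a background of 14.8%. Leukocyte markers rose at day 8 in 8 of 9 genes and macrophage, monocyte and dendritic markers in 5 of 8, with sums of 111 to 134 CPM at day 8 against 19.5 to 29.6 CPM at hour 0 for the macrophage, monocyte and dendritic list. Blood endothelial (4 of 6), epithelial (4 of 6), acinar and duct (4 of 7), T and NK (4 of 9) and erythroid markers (3 of 5) rose too. Neutrophil (3 of 6), fibroblast (2 of 9) and B and plasma markers (1 of 5) fell. Among 4 glial markers 1 rose and 2 fell, and among 5 mural markers 1 rose and 1 fell. Leukocytes are known to express Psmb8, Psmb9 and Psmb10 constitutively, and the part of these cells in the day 8 levels was not tested.

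Set against hour 3, whose libraries are also in the set with few sensory receptor counts, day 8 had 3 members that rose, where 16.5% of all genes tested rose, and 22 that fell, where 14.1% fell. Those that rose were Psmb9, Psmb10 and the base chaperone Psmd5. Psmb9 had 35.1, 25.2 and 33.4 CPM at day 8, against 10.3, 11.1 and 9.78 CPM at hour 3, a log2 fold change of 1.59 ± 0.25 (SE, adjusted p = 9.2e-06 in the edgeR fit). The smallest of these was Psmb10, at 0.58 ± 0.22 (adjusted p = 0.0422). Its call was lost with DESeq2 size factors, DESeq2 and limma-voom, in the fit of only hour 3, day 8 and day 23, and without replicate 1, 3, 5 or 6 (0.37 higher and adjusted p = 0.294 in the edgeR fit without replicate 1).

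Of the 22 that fell, 21 were constitutive, and Psmd11 fell by 1.62 on the log2 scale (adjusted p = 1.3e-08 in the edgeR fit). The direction turned with the scaling: by library totals 20 members rose, where 29.8% of all genes rose, and 3 fell (Psmb4, Psmd11 and Psme3), where 6.59% fell. All 5 inducible members rose by the totals. Psmb9 rose in both scalings, and so did Psmb10, with the losses just given.

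At day 23, 16 members rose, where 8.51% of all genes tested rose, and 1 fell, where 25.4% fell. They included Psmb8, Psmb9, Psme1 and Psme2 and 9 constitutive members, with median log2 fold changes of 1.33 over the inducible and 0.41 over the constitutive members, against -0.53 over all genes tested. These medians were 1.19, 0.27 and -0.01 among genes with at least 5 CPM in 3 libraries. By library totals 6 rose (Psmb8, Psmb9, Psme1, Psma7, Psmd7 and Psmg4), where 2.55% of all genes rose, and 4 fell (Psmb11, Psmc5, Psmd11 and Psmd6), where 39.7% fell. With a filter of 5 CPM in 3 libraries 10 members rose, at a background of 9.16%.

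Psmb8 had 131, 128 and 135 CPM at day 23, against 29.4, 29 and 55.4 CPM at hour 0 (log2 fold change 1.79 ± 0.22, SE, adjusted p = 3.62e-06 in the edgeR fit). Psmb9 had 38.7, 30.6 and 19.2 CPM (1.36 ± 0.25, adjusted p = 0.000435), and Psme1 had 146, 245 and 174 CPM (1.33 ± 0.21, adjusted p = 7.87e-05). All day 23 libraries of these 3 genes were above those of hour 0.

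Psme2 and Psmb10 were less uniform. Psme2 had 43.0, 66.6 and 32.0 CPM at day 23, against 25.7, 22.1 and 33.8 CPM at hour 0, and the groups overlapped (log2 fold change 0.80 ± 0.23, SE, adjusted p = 0.0108 in the edgeR fit). Psmb10 had 35.3, 28.8 and 19.2 CPM, overlapping with 15.8, 22.8 and 21.5 CPM at hour 0 (0.48, 95% interval 0.03 to 0.93, adjusted p = 0.0855).

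Of the 3 constitutive and chaperone members named for day 23, only Psma7 kept its call when replicate 8, the library with the deepest total of its group, was left out. Psma7 had 50.3, 84.7 and 92.8 CPM at day 23 (log2 fold change 1.35 ± 0.19, SE, adjusted p = 2.06e-05 in the edgeR fit), and 1.26 without replicate 8 (adjusted p = 0.000189). The lid subunit Psmd7 had 67.4, 208 and 81.9 CPM, against 64.3, 55.5 and 49.1 CPM at hour 0 (1.09 ± 0.26, adjusted p = 0.00355), and 0.41 without replicate 8 (adjusted p = 0.111).

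The core chaperone Psmg4 had 5.71, 33.2 and 8.05 CPM at day 23, against 4.64, 4.19 and 7.69 CPM at hour 0, and its log2 fold change was 1.54 ± 0.42 (SE, adjusted p = 0.00954 in the edgeR fit) but 0.30 without replicate 8 (adjusted p = 0.542). Psme2 also lost its call without replicate 8 (0.46, adjusted p = 0.126), and the count of members risen at day 23 was then 6. Leukocyte markers were higher at day 23 as well, with 6 of 9 risen, as were epithelial (4 of 6) and acinar and duct markers (4 of 7). T and NK (2 of 9) and macrophage, monocyte and dendritic markers (2 of 8) rose too. Mural (3 of 5), erythroid (3 of 5) and neutrophil markers (2 of 6) fell. Glial markers had 1 rise and 2 falls, and B and plasma and blood endothelial markers 1 of each. The part of these lists was not tested.

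Between day 8 and day 23 no member rose, where 2.25% of all genes tested rose, by edgeR's quasi-likelihood test and by limma-voom. DESeq2 called 1, and 1 had an unadjusted p under 0.05. The member that fell was the base subunit Psmd2, which had 91.3, 79.6 and 81.7 CPM at day 23, against 119, 122 and 129 CPM at day 8 (log2 fold change -0.55, adjusted p = 0.036 in the edgeR fit), where 3.08% of all genes fell. Its libraries did not overlap, but no member fell without replicate 1, 2 or 3, without day 2, or in the fit of only these 2 groups. With library totals alone 0 members rose, where 1.65% of all genes rose, and 1 fell, where 3.44% fell.

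Relative to the geometric mean of the 31 constitutive members in the same library, Psmb8 lay at -0.12 (log2, per kb of exon) in uninfected mice, 0.24 after 3 hours, 1.59 after 1 day, 1.44 after 2 days, 1.22 after 8 days and 1.36 after 23 days. Psmb9 lay at -1.89, -3.32, -1.02, -1.09, -1.07 and -0.97 at the same times, and Psmb10 at -0.01, -1.10, 0.88, 1.08, 0.14 and 0.06. These differences need no scaling between libraries. Psmb8 lay above all hour 0 libraries from day 1 on, while its hour 3 libraries (0.07 to 0.47) overlapped with those of hour 0 (-0.42 to 0.41), and Psmb10 did so clearly at day 1 and day 2 but lay close to it at day 8 and day 23. Psme1 lay at 1.5, 1.11, 2.82, 2.32, 2.18 and 2.46, and Psme2 at 0.38, -0.10, 1.13, 1.15, 0.82 and 0.76.

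In order of level per kb of exon among the 49 members, Psmb8 ranked 21 in uninfected mice, 17 after 3 hours, 2 after 1 day, 2 after 2 days, 3 after 8 days and 5 after 23 days. Its levels were 11.2 ± 4.48, 33.7 ± 6.71, 84.4 ± 11.6, 41.2 ± 5.70, 42.2 ± 10.3 and 38.9 ± 1.03 CPM per kb (SD, n = 3 each), of which those of day 2, day 8 and day 23 differ by less than their spread. Psmb9 was the lowest of the inducible members, ranking 40 at hour 0 and 38 at day 1, and Psme1 ranked first at every time except hour 3, where it ranked 4. The median constitutive member had 12.5 CPM per kb in uninfected mice, 31.6 after 3 hours, 29 after 1 day, 15.1 after 2 days, 17.9 after 8 days and 15.5 after 23 days. Levels per kb depend on the annotated exon length, which counts every annotated exon of a gene once.

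Of the 3 other regulators Psme3, Psme4 and Psmf1, 2 rose at hour 3, 1 at day 1, none at day 2, 2 at day 8 and 1 at day 23. Psme3 rose by 1.03 on the log2 scale at day 1 (adjusted p = 9.5e-05 by edgeR's quasi-likelihood test), with 66.7, 51.3 and 62.3 CPM at day 1, against 37.4, 21 and 29.9 CPM at hour 0. It had 37.0, 31.6 and 37.1 CPM at day 2, where it did not pass the test (0.26, adjusted p = 0.462), and rose by 0.67 at day 8 and 0.68 at day 23. By library totals it rose at day 2 (by 0.63) and passed the test neither at day 8 nor at day 23, and its day 23 call was also lost without replicate 11 (adjusted p = 0.0584 in the edgeR fit). By TMM the highest mean of Psme3 was at hour 3, while those of Psme1 and Psme2 were at day 1.

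Psme4, the large PA200 activator, had 133, 123 and 128 CPM at hour 3 and 125, 129 and 122 CPM at day 8, against 69.5, 72.4 and 69.6 CPM at hour 0. It rose at both times, by 0.86 (adjusted p = 3.01e-05 in the edgeR fit) and 0.83 (adjusted p = 0.000171), though at hour 3 it was 0.32 lower with library totals alone. At day 1 it had 74.6, 68.6 and 76.5 CPM, overlapping with hour 0, and its log2 fold change was 0.06 with a 95% interval from -0.25 to 0.36 (adjusted p = 0.834).

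Psmf1, an inhibitor of the core known as PI31, had 20.5, 13.2 and 15.7 CPM at day 1, against 11.5, 13.7 and 17.7 CPM at hour 0. It passed the test at no time under TMM scaling, and its 95% interval at day 1 ran from -0.32 to 0.72 on the log2 scale. By library totals it fell at hour 3.

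Of the assembly chaperones, which help to build the base and the core, 1 of 3 base chaperones (Psmd5) and 1 of 4 core chaperones (Psmg4) rose at day 1, where 9.67% of all genes tested rose. By library totals 2 base (Psmd5 and Psmd10) and 2 core chaperones (Psmg1 and Psmg4) rose, where 10.9% of all genes rose. At hour 3 no chaperone passed the test under TMM. By library totals 3 base and 3 core chaperones fell there, where 70.8% of all genes fell. Psmd5 had 35.0, 37.3 and 40.1 CPM at day 1, against 18.1, 11.6 and 15.3 CPM at hour 0 (log2 fold change 1.32 ± 0.24, SE, adjusted p = 0.00012 in the edgeR fit). Psmg4 had 21.6, 16.9 and 17.3 CPM at day 1, against 4.64, 4.19 and 7.69 CPM at hour 0 (1.74 ± 0.42, adjusted p = 0.00251). Neither gene's groups overlapped.

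Psme2b had 15.5, 13.8 and 10.2 CPM at day 1, against 1.26, 1.59 and 3.47 CPM at hour 0, a log2 fold change of 2.61 ± 0.46 (SE, adjusted p = 6.01e-05 in the edgeR fit), and it was called risen at every other time too. Leaving out 1 replicate ended its calls at hour 3, day 2 and day 23 (highest adjusted p = 0.0887, 0.0678 and 0.114 in the edgeR fit), and library totals ended those at hour 3 (0.13 higher) and day 23 (1.03 higher). Its sequence is close to that of Psme2, and how the counting treated reads that match several genes is not given in the sources used here, so its values are uncertain.

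The tissue-restricted members were near the detection limit. Psma8, the alpha subunit of the testis, had 12, 9 and 11 counts at day 1, against 5, 10 and 10 counts at hour 0, and passed the test at no time. Psmb11, the thymus-specific catalytic subunit, had 0, 3 and 0 counts at hour 3, 1, 1 and 3 counts at day 1 and 11, 17 and 23 counts at day 2, against 11, 35 and 12 counts at hour 0. It had 0 counts in all 6 libraries of day 8 and day 23, and was the member that fell at hour 3, day 1, day 8 and day 23 and rose at day 2 against day 1. Its calls at hour 3 and day 1 were lost when certain single replicates were left out (highest adjusted p = 0.0824 and 0.14 in the edgeR fit).

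Sensory receptor genes (1455 genes), whose known expression lies outside stroma, had 0.192 to 0.209 CPM per kb at day 2, 0.00204 to 0.00219 at day 8 and 0.00152 to 0.00260 at day 23, against 0.0939 to 0.141 at hour 0. They had 0.00715 to 0.0114 CPM per kb at hour 3 and 0.0422 to 0.0826 at day 1. Psmb11 had 0.345 to 0.501 CPM per kb at day 2, against 0.207 to 0.828 at hour 0. Psmb11 was at 0 at day 8 and day 23, where the receptor genes had their lowest levels, and the part of such background in its calls was not tested.

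Genes that load peptides on MHC class I molecules were also counted. Of 11 such genes, all 11 rose after 3 hours and after 1 day, 6 after 2 days, 9 after 8 days and 10 after 23 days in the edgeR fit. The peptide transporter subunit Tap1 averaged 495 ± 91.0 CPM at day 1, against 58.0 ± 18.9 CPM at hour 0 (SD, n = 3 each), a log2 fold change of 3.09. It was also high at hour 3, at 416 ± 89.5 CPM, and rose there in both scalings, by 2.84 under TMM and 1.67 with totals. Psmb9, whose start lies 225 bases from that of Tap1, did not rise at hour 3 in either scaling.

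Tap2 averaged 323 ± 58.9 CPM at day 1, against 59.1 ± 3.54 CPM at hour 0 (log2 fold change 2.45), and B2m, the light chain of class I molecules, rose by 2.00 on the log2 scale. By library totals 4 of the 11 rose and 3 fell at hour 3, and 11 rose after 1 day, 6 after 2 days, 7 after 8 days and 4 after 23 days.

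Of 9 genes of interferon signalling and class I activation, 6 rose after 3 hours, 7 after 1 day, 5 after 2 days, 7 after 8 days and 4 after 23 days. By library totals 5 rose and 4 fell after 3 hours, and 7 rose after 1 day, 6 after 2 days, 2 after 8 days and 3 after 23 days, with Ifngr1 fallen after 2 and 8 days. Irf1, which is known in human cells to act on the Psmb9 and Tap1 promoters, had a log2 fold change of -0.21 at hour 3 (adjusted p = 0.486 by edgeR's quasi-likelihood test) and rose by 1.09 at day 1 (adjusted p = 0.00238).

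Nlrc5, the class I transactivator, averaged 97.0 ± 19.6 CPM at hour 3 and 376 ± 150 CPM at day 1, against 26.5 ± 13.5 CPM at hour 0, and rose by 1.86 and 3.82 on the log2 scale. By library totals Irf1 fell by 1.38 at hour 3. At day 2 the interferon-gamma receptor chain Ifngr1 fell by 1.68 (adjusted p = 5.57e-07 in the edgeR fit), with 79.7 ± 7.20 CPM at day 2 against 255 ± 27.3 CPM at hour 0.

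The genes known to control constitutive proteasome genes also changed. Of 4 such genes 3 rose after 3 hours, 2 after 1 day, 0 after 2 days and 2 each after 8 and 23 days, and Ngly1 fell at day 2. By library totals 3 rose and Ngly1 fell after 3 hours, 2 rose after 1 day, 1 each after 2 and 8 days and 0 after 23 days, and the fall of Ngly1 at day 2 was lost. Nfe2l1, the factor that drives proteasome genes when proteasome capacity is short, averaged 477 ± 8.32 CPM at hour 3 and 379 ± 27.7 CPM at day 1, against 147 ± 7.84 CPM at hour 0 (SD, n = 3 each). Its rises were 1.70 and 1.37 on the log2 scale, and 0.52 and 1.46 with library totals alone. At day 2 it averaged 128 ± 12.7 CPM and did not pass the test (-0.20, adjusted p = 0.487 by edgeR's quasi-likelihood test).

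Ddi2, the protease that activates Nfe2l1, averaged 332 ± 12.1 CPM at hour 3, against 56.9 ± 3.72 CPM at hour 0, and rose by 2.55 under TMM and 1.37 with totals. Of 7 proteasome partners tested 4 rose after 3 hours, 5 after 1 day, 0 after 2 days and 3 each after 8 and 23 days. By library totals 0 rose and 3 fell (Akirin2, Ecpas and Uchl5) after 3 hours, and 5 rose after 1 day, 3 after 2 days and 1 each after 8 and 23 days. The core assembly factor Pomp averaged 56.0 ± 11.2 CPM at day 1, against 24.7 ± 2.04 CPM at hour 0 (log2 fold change 1.18). Of 7 ubiquitin and ISG15 genes 4 rose after 3 hours, 4 after 1 day, 2 after 2 days, 3 after 8 days and 4 after 23 days. By library totals 1 rose and 3 fell after 3 hours, 5 rose after 1 day, 2 after 2 days, 1 rose and 3 fell after 8 days, and 0 rose after 23 days. Isg15, a ubiquitin-like protein of the interferon response, averaged 202 ± 42.2 CPM after 1 day, against 6.91 ± 2.93 CPM in uninfected mice (log2 fold change 4.85). The background shares of genes that rose or fell given above for each time apply to these lists as well.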

How the data were processed

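The authors deposited raw counts per Ensembl gene for each of 18 libraries, 3 in each of 6 groups. Per the submitters' processing notes the authors used FastQC, STAR, Subread and DESeq2 with mm10. Versions, annotation, strand setting and handling of reads with several matches are not given in the sources used here. Names and exon lengths came from GENCODE M21, which matched 55141 of 55401 identifiers. The unmatched ones held 0.0241% of counts.

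All 18 libraries entered one quasi-likelihood fit of the counts (edgeR 4.0.16 under R 4.3.3), with TMM scaling and filterByExpr (minimum count 10, minimum total 15), which left 27525 genes. Adjusted p-values are Benjamini-Hochberg over these genes, and a call needs one under 0.05. Replicate numbers differ between groups and each library is 1 mouse. Pair ratios used counts per kb and a two-sided exact permutation test (scipy 1.17.1). Alternatives were DESeq2 size factors, library totals, no filter, 5 CPM in 3 libraries, DESeq2 1.42.0, limma-voom (limma 3.58.1), fits of fewer groups, and each replicate left out. The code of the fit was tried on simulated counts with 200 genes changed at day 1. Their spread was smaller than the common biological coefficient of variation of 0.38 in these data. That trial therefore does not show how reliable the calls or the scaling are here.

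The members and lists were chosen with earlier results of these data known. Named members are the 5 inducible and 3 constitutive catalytic subunits, a fixed set of regulators and restricted subunits, and for each time the 3 largest other rises and falls that passed with at least 10 CPM. Other genes named are examples from the lists. Psmd2, Psmd5 and Psmd6 were named after their values were seen. No table column of per-sample values was left out.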

Additional observations from a re-analysis of the deposited data

How the results depend on the processing

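No paired analysis was possible because the groups share no replicate numbers (0 shared). Of the counts of members called, these moved. With library totals alone, at hour 3 5 rose and 14 fell, at day 2 30 rose, at day 8 8 rose and 2 fell, at day 23 6 rose and 4 fell, and at day 8 against hour 3 20 rose and 3 fell. With 5 CPM in 3 libraries, which left out Psmb11, 0 fell at hour 3, day 1, day 8 and day 23, 25 rose at day 2, 10 rose at day 23, 0 rose at day 2 against day 1 and 3 fell at day 23 against day 8. At day 2, 23 rose with DESeq2 size factors and 27 with DESeq2. From day 23 against day 8, DESeq2 gave 1 risen and 3 fallen, no filter 1 and 3, and limma-voom 2 fallen. In fits of only the groups compared, 0 fell at day 1, 5 rose at day 23, 6 rose at day 8 against hour 3 and 0 fell at day 23 against day 8. Without day 2, 0 fell at day 1 and at day 23 against day 8, and in the fit of only hour 3, day 8 and day 23, 1 rose at day 8 against hour 3. The cause of these moves was not tested.

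Leaving out 1 replicate gave 0 to 1 fallen at hour 3 and at day 1, 6 to 18 risen at day 23 (6 without replicate 8), 0 to 1 risen at day 2 against day 1, 1 to 3 risen at day 8 against hour 3, and 0 to 1 risen and 0 to 2 fallen at day 23 against day 8. Counts of members risen at hour 3 (33 to 37), day 1 (39 to 41), day 2 (7 to 11) and day 8 (21 to 29) stayed within 1.5 times.

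These log2 fold changes changed sign. With library totals alone they were -1.0 (Psmb10), -0.35 (Psmb6), -0.32 (Psme1), -0.39 (Psme2) and -0.32 (Psme4) at hour 3, -0.30 (Psmb6) and -0.30 (Psmb7) at day 23, and 0.68 (Psmb5) and 0.54 (Psmb6) at day 8 against hour 3. With 5 CPM in 3 libraries they were -0.0072 (Psmb10, hour 3) and -0.00047 (Psmb6, day 23). With no filter they were 0.018 (Psmb5, day 8 against hour 3), -0.0055 (Psmb7, day 2) and -0.057 (Psme1, day 23 against day 8), and with only the groups compared -0.012 (Psmb7, day 2). Without 1 replicate the ranges were -0.22 to 0.072 for Psmb5 at day 8 against hour 3, -0.047 to 0.48 for Psmb6 at day 23, -0.028 to 0.25 for Psmb7 at day 2, -0.0072 to 0.36 for Psmb7 at day 23, and, at day 23 against day 8, -0.30 to 0.039 for Psmb8, -0.30 to 0.15 for Psmb9 and -0.17 to 0.23 for Psme1. For the log2 ratios they were -0.39 to 0.43 (Psmb8 to Psmb5, day 2 against day 1), -0.092 to 0.36 (Psmb10 to Psmb7, day 8 against hour 0) and -0.024 to 0.43 (the same pair, day 23 against day 8). Of 1356 alternative values for named members 1215 kept direction and call, 106 lost the call, 9 gained it and 26 changed sign. Depth limits Psma8 and Psmb11, which have few counts, and 3 libraries a group limit all tests.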
